A study of Mus musculus with 30 samples.

Results

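Complex I, the NADH:ubiquinone oxidoreductase of the mitochondrial inner membrane, was followed at the transcript level in mouse hearts whose cardiomyocytes were made to lose both REV-ERB nuclear receptors. The genes described are the 42 rows, of 13575 in the deposited table, whose symbol starts with Nduf. Of these, 36 encode subunits of the enzyme, 4 encode assembly factors named Ndufaf, and Ndufa4 and Ndufa4l2 carry the name without being counted as subunits here. The 3 control libraries came from mice with floxed Rev-erba and Rev-erbb alleles, and the 3 libraries labelled CM-RevDKO from mice in which both genes were to be deleted in cardiomyocytes. Hearts of both groups were taken at 2 months of age and at ZT10 (10 hours after lights on), and the atria were cut away before RNA was extracted. For the ChIP samples of the same series the protocol names an aMHC-Cre transgene, present or absent on a background of both floxed genes, so Cre was driven by a cardiomyocyte promoter there; if the RNA controls also lack Cre, an effect of Cre itself and loss of the receptors cannot be told apart. Sex, and whether each library is a separate animal, are not stated for the RNA samples, so the p-values below measure the spread between these libraries, which may be technical. The other 24 of the 30 samples, from chromatin assays, were not analysed here.

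Complex I takes electrons from NADH, passes them along a flavin and a chain of iron-sulfur clusters to ubiquinone, and pumps protons as it does so; in the heart, which burns mostly fatty acids and other fuels in mitochondria, it is the main entry point of the respiratory chain. It has the shape of an L. The matrix arm holds the N module, where NADH is oxidised, and the Q module, where ubiquinone is reduced, and the membrane arm holds the proton pumps. The catalytic core consists of nuclear-encoded matrix arm subunits and of membrane subunits encoded in mitochondrial DNA, and around it sit accessory subunits that stabilise the enzyme. Assembly factors help to build the modules and then leave. REV-ERBα and REV-ERBβ are repressors of the circadian clock that bind ROR elements.

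Values are FPKM as read from the deposited table, a unit that divides fragments by transcript length and by library total. Levels of different genes are set side by side on this scale. The annotation that set the lengths is not stated, so such comparisons are approximate. Sequencing depth is unknown. The targeted genes gave no check of the labels. Nr1d1 (REV-ERBα) rose instead of falling, with no control library above 23.9 FPKM and 47.4 to 55.6 FPKM in the CM-RevDKO group. Nr1d2 (REV-ERBβ) ranged over 30.6 to 40.3 FPKM and 26.6 to 28.8 FPKM in that order of groups. Gene-level values can include exons that were not deleted, and each direction below rests on the labels. All 8 cardiomyocyte markers examined (among them Myh6, Tnnt2 and Ryr2) were measured in every library, at a summed level of 29382 to 31550 FPKM in the control group and 29367 to 32907 FPKM in the CM-RevDKO group. Their log2 fold changes (CM-RevDKO over control) were split, with 4 positive and 4 negative, from -0.49 to 0.37. Their median log2 difference from the control mean was -0.225, -0.076 and 0.188 in CM-RevDKO replicates 1, 2 and 3. A short mitochondrial transcript, mt-Atp8, set CM-RevDKO replicates 1 and 2 (18989 and 19303 FPKM) apart from the remaining 4 libraries (8032 to 9769 FPKM). The row mmu-mir-689-2 set the same 2 libraries apart, at 3683 and 1813 FPKM against 25204 to 42294 FPKM in the remaining 4. The part of this row in the values of other genes was not tested. Values of replicate 3 taken alone are given beside the medians of the subunits, the Q module, both membrane arms, the 4 Ndufaf genes and the mitochondrially encoded genes. In bulk tissue, fewer cells of a type and less RNA per cell cannot be told apart.

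Of the 36 subunits, Ndufv3 rose in the libraries labelled CM-RevDKO and no other subunit passed the test (limma with Benjamini-Hochberg adjustment over 13256 genes, threshold 0.05). That is 1 subunit higher and 0 lower, where 1.26% of all genes tested were called higher and 1.24% lower. At an unadjusted p under 0.05, 11 subunits were higher and 0 lower, against 9.41% and 7.23% of all genes. The log2 fold change was positive for 33 of 36 subunits (53.7% of all genes), with a median of 0.18 where the median of all genes tested was 0.02. For 16 of 36 subunits the CM-RevDKO values all lay above the control values, as they did for 12.6% of all genes, and for 0 they all lay below (10.5% of all genes). With CM-RevDKO replicate 3 alone against the controls, 28 of 36 subunits were positive with a median of 0.10. Quantile normalization gave 26 positive with a median of 0.067, and scaling without the mitochondrially encoded genes gave 29 with a median of 0.11. The 36 genes share the same 6 libraries and are not independent replicates of the condition.

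**Figure D1:**
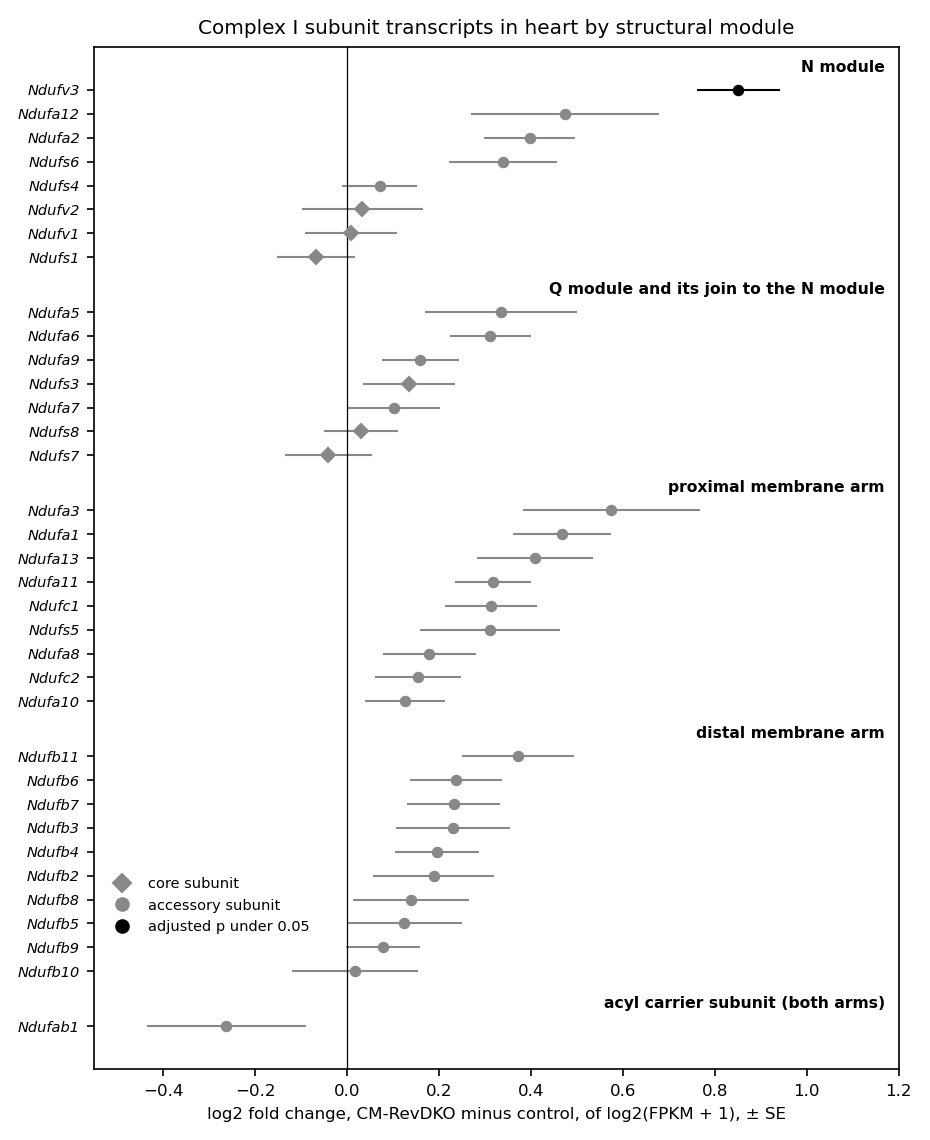
Log2 fold changes (horizontal axis, CM-RevDKO minus control on the log2(FPKM + 1) scale, with the standard error) of 35 of the 36 complex I subunits, grouped by structural module; diamonds are core subunits, circles accessory subunits, and black marks an adjusted p under 0.05. Ndufv3 stands at 0.85, the other subunits shown lie between -0.26 and 0.58, and the 6 core subunits shown lie between -0.07 and 0.13.

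Ndufv3 encodes an accessory subunit of the N module that sits beside the NADH-binding subunits (ENSMUSG00000024038, chromosome 17, 31520115 to 31531326, mm10). Its control values were 438, 478 and 480 FPKM. Its values in the libraries labelled CM-RevDKO were 911, 816 and 795 FPKM. The groups were far from overlapping. CM-RevDKO replicate 3, which did not share the mt-Atp8 level of replicates 1 and 2, also lay above every control. As log2 differences from the control mean, CM-RevDKO replicates 1, 2 and 3 lay at 0.97, 0.81 and 0.77. The group means were 465 ± 23.5 and 840.5 ± 61.7 FPKM (SD, n = 3), a 1.81-fold difference, with a log2 fold change of 0.85 (SE 0.09, limma adjusted p = 0.00465). Of the 332 genes called in either direction, 161 had a larger absolute log2 fold change. The call held when any single library was left out (adjusted p of 0.011 to 0.0334). With CM-RevDKO replicate 3 alone against the controls the log2 fold change was 0.77, and the call ended (adjusted p = 0.0957). No other gene of the RefSeq annotation overlaps Ndufv3.

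The catalytic partners of Ndufv3 in the N module had almost the same level in both groups. Ndufv1 encodes the subunit that binds NADH and the flavin; it stood at 234, 247 and 213 FPKM in the control libraries and at 228, 255 and 215 FPKM in the CM-RevDKO libraries (log2 fold change 0.01, SE 0.10, adjusted p = 0.982). Ndufv2, which carries an iron-sulfur cluster next to the flavin, stood at 258, 212 and 273 FPKM in the control libraries and at 286, 224 and 250 FPKM in the CM-RevDKO libraries (0.03, SE 0.13, adjusted p = 0.937). Ndufs1, the largest subunit of the enzyme and the carrier of further clusters, stood at 209, 189.5 and 214 FPKM and at 196, 198 and 190.05 FPKM in the same order of groups (-0.07, SE 0.08, adjusted p = 0.745). For these 3 genes the values of the groups interleaved. Among the other accessory subunits of the N module, Ndufa2 stood at 398, 405 and 420 FPKM in the control libraries and at 574, 569 and 474 FPKM in the CM-RevDKO libraries (0.40, SE 0.10, adjusted p = 0.0980). Its groups did not overlap, but it did not pass the test; it passed without CM-RevDKO replicate 3. Ndufa12 ranged from 118 to 158 FPKM in the control libraries and from 145 to 253 FPKM in the CM-RevDKO libraries, with the highest value in replicate 1 (0.47, SE 0.20, adjusted p = 0.304). Ndufs6 had means of 449 ± 22.9 and 572 ± 80.8 FPKM (adjusted p = 0.203) and Ndufs4 of 121 ± 5.82 and 127 ± 4.21 FPKM (adjusted p = 0.723; SD, n = 3).

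**Figure D2:**
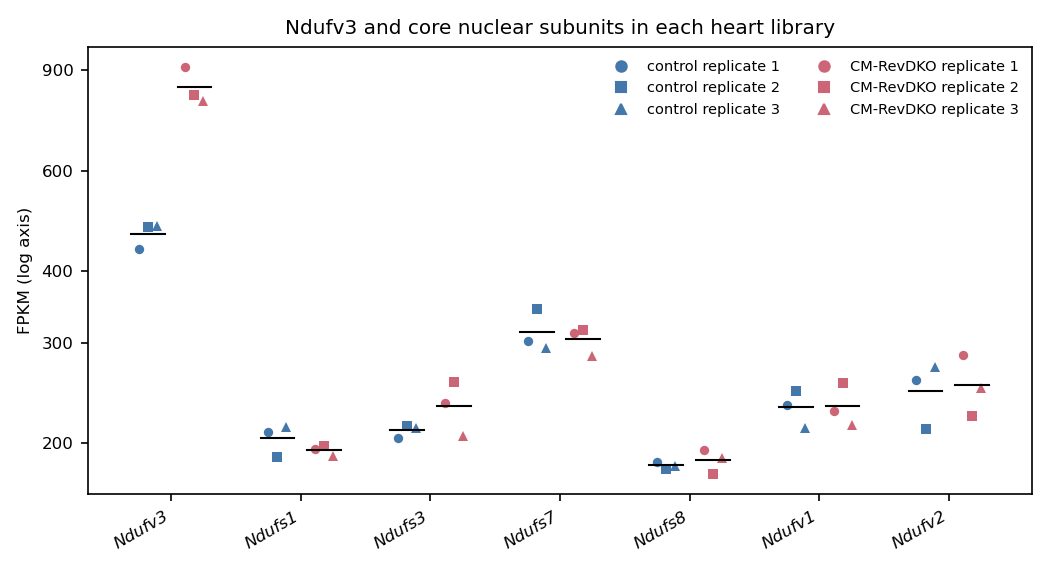
FPKM (log axis) of Ndufv3 and 6 of the 7 core nuclear subunits in each of the 6 libraries; symbols mark the replicate number, blue is control, red is CM-RevDKO, and lines are group means. Ndufv3 lies at 438 to 480 FPKM in the control libraries and 795 to 911 FPKM in the CM-RevDKO libraries, whereas the groups overlap for the 6 core subunits.

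The stretch of 250 bases before the annotated start is shown for Ndufv3 as the one subunit past the test, for its catalytic neighbour Ndufv1, and for 2 members that hold motifs of factors known to act on clock or respiratory chain genes. Sequences are from the RefSeq annotation of GRCm38.p6 and read 5′ to 3′ on the strand of the gene: Ndufv3 at chr17:31519865-31520114 (plus strand), Ndufv1 at chr19:4012756-4013005 (minus strand), Ndufb4 at chr16:37654369-37654618 (minus strand) and Ndufb10 at chr17:24724424-24724673 (minus strand). Capitals mark matches to the motifs searched.
Ndufv3: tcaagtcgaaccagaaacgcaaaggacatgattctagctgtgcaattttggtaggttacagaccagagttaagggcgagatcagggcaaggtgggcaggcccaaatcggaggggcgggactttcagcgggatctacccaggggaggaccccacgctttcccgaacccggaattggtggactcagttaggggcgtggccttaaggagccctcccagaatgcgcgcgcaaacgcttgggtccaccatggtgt
Ndufv1: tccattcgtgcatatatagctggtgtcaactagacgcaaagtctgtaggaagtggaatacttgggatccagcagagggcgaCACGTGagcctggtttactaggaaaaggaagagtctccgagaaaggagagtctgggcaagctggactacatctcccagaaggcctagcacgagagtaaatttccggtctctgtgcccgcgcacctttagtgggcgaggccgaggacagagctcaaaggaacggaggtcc
Ndufb4: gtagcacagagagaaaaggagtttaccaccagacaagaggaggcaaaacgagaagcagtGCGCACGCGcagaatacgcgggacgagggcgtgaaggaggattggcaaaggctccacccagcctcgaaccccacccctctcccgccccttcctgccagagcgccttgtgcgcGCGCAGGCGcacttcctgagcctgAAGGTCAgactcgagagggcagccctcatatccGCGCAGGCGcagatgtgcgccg
Ndufb10: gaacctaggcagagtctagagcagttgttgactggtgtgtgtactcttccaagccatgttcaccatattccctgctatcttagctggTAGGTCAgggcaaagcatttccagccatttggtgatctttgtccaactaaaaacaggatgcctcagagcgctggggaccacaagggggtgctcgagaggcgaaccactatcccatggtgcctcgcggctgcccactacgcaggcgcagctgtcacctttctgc
The motifs were searched on both strands as exact letters: the ROR element as TAGGTCA or TGGGTCA, the element of the ERR receptors as AAGGTCA, the E-box as CACGTG, the D-box as TTANGTAA, the NRF1 element as GCGCANGCG and the ETS element as CCGGAAGT. TAGGTCA and AAGGTCA differ in a single letter, so no match counts for both. The window of Ndufv3 held none of them. That of Ndufv1 held an E-box that begins 169 bases before the start, that of Ndufb4 held 3 NRF1 elements and an ERR element, and that of Ndufb10 held a ROR element that begins 163 bases before the start. A window was listed for 37 of the 42 members (Ndufa2, Ndufa4l2, Ndufb9 and Ndufs1 were among those without one). Of these, 7 held the NRF1 element (18.9%, against 12.6% of the 8618 genes tested that have a window), 3 the ERR element (8.11% against 3.43%), 2 the ROR element (5.41% against 5.38%) and 2 the E-box (5.41% against 9.92%). The D-box and the ETS element were in 0 of 37, against 1.59% and 6.59%. Over all 27025 genes with a window, with or without a measured level, the NRF1 element was in 5.86% and the ROR element in 6.15%. The members with a ROR element, Ndufb10 and Ndufab1, had log2 fold changes of 0.02 and -0.26, neither past the test. A match is a description of these letters and does not show binding.

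In the Q module, where electrons reach ubiquinone, 0 of 8 subunits passed the test (limma; 1 higher at an unadjusted p under 0.05, as were 9.41% of all genes), and the median log2 fold change was 0.15 (0.062 in CM-RevDKO replicate 3 alone). Ndufs7, which holds the last iron-sulfur cluster of the chain, stood at 303, 343 and 294 FPKM in the control libraries and at 312, 316 and 284 FPKM in the CM-RevDKO libraries (-0.04, SE 0.10, adjusted p = 0.877). Ndufs8, the carrier of further clusters, stood at 186, 180.2 and 183 FPKM and at 195, 177 and 189 FPKM (0.03, SE 0.08, adjusted p = 0.900). Ndufs3, a core subunit without a cluster, stood at 205, 215 and 213 FPKM and at 236, 256 and 206 FPKM (0.13, SE 0.10, adjusted p = 0.553). The values of the groups interleaved for these 3 genes. Of the 7 core nuclear subunits, 5 had a log2 fold change within 0.1 of 0. The median of the 7 was 0.03, against 0.23 for the 29 accessory subunits. The difference between these 2 medians was not tested. Among the accessory subunits of this region, Ndufa5 stood at 587, 636 and 642 FPKM in the control libraries and at 993, 788 and 614 FPKM in the CM-RevDKO libraries (0.33, SE 0.17, adjusted p = 0.368), so its difference came from replicates 1 and 2. Ndufa6, an accessory subunit of the LYR motif family, had 399 ± 25.6 and 495 ± 27.2 FPKM (SD, n = 3) with no overlap (adjusted p = 0.134), and Ndufa9 and Ndufa7 had log2 fold changes of 0.16 and 0.10.

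In the proximal membrane arm, next to the joint of the L, all 9 accessory subunits had a positive log2 fold change, with a median of 0.31 (0.19 in CM-RevDKO replicate 3 alone). None of the 9 passed the test (limma; 5 higher at an unadjusted p under 0.05, as were 9.41% of all genes). The CM-RevDKO values all lay above the control values for 5 of the 9, as for 12.6% of all genes. Ndufa3, a small subunit with a single membrane helix, stood at 704, 810.5 and 740 FPKM in the control libraries. In the CM-RevDKO libraries it stood at 1506, 1084 and 856 FPKM. Its mean was 1.53-fold higher (0.58, SE 0.19, adjusted p = 0.191), and the CM-RevDKO libraries differed among themselves more than the controls did, with SDs of 330 and 54.3 FPKM. Ndufa1, another small membrane subunit, encoded on the X chromosome, stood at 516, 516 and 528 FPKM in the control libraries and at 798, 747 and 625 FPKM in the CM-RevDKO libraries (0.47, SE 0.11, adjusted p = 0.0751). It passed the test without CM-RevDKO replicate 3, as Ndufa2 did. Ndufa13, also known as GRIM-19, had 262 ± 16.5 and 351 ± 55.7 FPKM (adjusted p = 0.163; SD, n = 3). Ndufa11, the subunit with the lowest level, stood at 72.3, 72.5 and 78.5 FPKM in the control libraries and at 91.6, 96.7 and 90.7 FPKM in the CM-RevDKO libraries (0.32, SE 0.08, adjusted p = 0.106). Here CM-RevDKO replicate 3 lay close to replicates 1 and 2. Ndufc1 stood at 115, 118 and 117 FPKM and at 152, 156 and 128 FPKM (0.31, SE 0.10, adjusted p = 0.174). The smallest difference in this arm was that of Ndufa10, at 203, 224 and 211 FPKM and at 219, 232 and 246 FPKM (0.13, SE 0.09, adjusted p = 0.519).

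In the distal membrane arm 10 of 10 measured subunits had a positive log2 fold change, with a median of 0.19 (0.105 in CM-RevDKO replicate 3 alone). None passed the test (limma; 2 higher at an unadjusted p under 0.05, as were 9.41% of all genes), and for 5 the CM-RevDKO values all lay above the control values (12.6% of all genes). Ndufb11, encoded on the X chromosome and needed for the membrane arm to form, stood at 438, 478 and 445 FPKM in the control libraries and at 694, 569 and 513 FPKM in the CM-RevDKO libraries (0.37, SE 0.12, adjusted p = 0.183). At the other end of this arm, Ndufb10 stood at 386, 533 and 458 FPKM and at 503, 413 and 470.5 FPKM (0.02, SE 0.14, adjusted p = 0.970). Ndufb9, the most abundant subunit in the control libraries, stood at 865, 899 and 898 FPKM and at 961, 883 and 967 FPKM (0.08, SE 0.08, adjusted p = 0.683). The other 7 subunits of the arm had log2 fold changes between 0.12 (Ndufb5) and 0.24 (Ndufb6).

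Ndufab1, the mitochondrial acyl carrier protein, which sits in both arms and also carries growing chains in mitochondrial fatty acid synthesis, had the lowest log2 fold change of the 36 and did not pass the test; Ndufs1 and Ndufs7 were the other two below 0. It stood at 277, 315 and 334 FPKM in the control libraries and at 202, 256 and 326 FPKM in the CM-RevDKO libraries (-0.26, SE 0.17, adjusted p = 0.499). The low values were those of CM-RevDKO replicates 1 and 2, and replicate 3 lay within the control range. A pseudogene copy, Ndufab1-ps (listed as Gm17257), had the same order among the CM-RevDKO libraries but not among the controls, at 50.8, 43.8 and 52.2 FPKM in the control libraries and at 20.1, 27.9 and 46.0 FPKM in the CM-RevDKO libraries (adjusted p = 0.240). Reads can be split between such copies, so both values are uncertain. The same holds for Ndufs6 with Ndufs6b (Gm6415), whose CM-RevDKO replicate 1 value was 94.0 FPKM, with 25.9 to 41.5 FPKM elsewhere, and for Ndufb4 with Ndufb4c (Gm3244), at 73.9 and 77.5 FPKM in the group means. These 3 copies were matched by Ensembl identifier and chosen after their values were seen.

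The 36 subunits spanned an 11.9-fold range of levels in the control libraries, from 74.4 FPKM for Ndufa11 to 887 FPKM for Ndufb9, around a median of 291 FPKM; 224 of all genes tested lay above that median. The median core subunit stood at 231 FPKM and the median accessory subunit at 309 FPKM in the control libraries. In the CM-RevDKO libraries Ndufa3 had the highest mean, at 1149 ± 330 FPKM, above Ndufb9 at 937 ± 46.5 FPKM (SD, n = 3), and that step was smaller than the spread of Ndufa3. Ndufv3 held the sixth place in the control means. It came close to Ndufa5, with means of 840.5 and 798 FPKM, in the CM-RevDKO libraries.

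**Figure D3:**
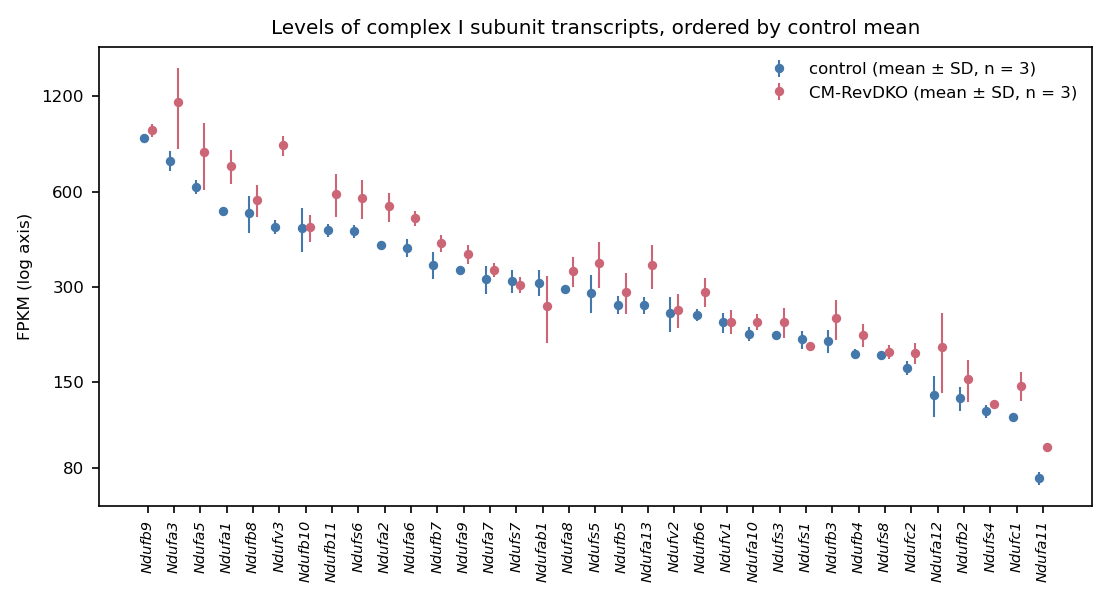
Mean FPKM (log axis) of 35 of the 36 subunits in control (blue) and CM-RevDKO (red) libraries, with SD (n = 3), ordered by the control mean. Levels run from 887 FPKM (Ndufb9) to 74.4 FPKM (Ndufa11) in the control group, and Ndufv3 (465 and 840.5 FPKM) shows the widest gap between group means on the log axis, 1.81-fold.

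The CM-RevDKO libraries did not contribute equally. Taken as log2 differences from the control mean, subunit medians were 0.29, 0.21 and 0.10 in CM-RevDKO replicates 1, 2 and 3, and -0.05, 0.03 and 0.02 in the control replicates, where the median of all genes stood at 0.06, -0.01 and 0.01 and at 0.03, 0.0039 and -0.03. Of the 36 subunits, 29, 24 and 23 lay above all 3 controls in these CM-RevDKO libraries, and 22 had their highest CM-RevDKO value in replicate 1 and 24 their lowest in replicate 3. The summed level of the subunits was 11259 to 12105 FPKM in the control libraries and 15541, 13942 and 13020 FPKM in the CM-RevDKO libraries. As a share of all values outside the mitochondrial genome, this was 2.76% to 2.93% and 3.55%, 3.36% and 2.90%. The share in CM-RevDKO replicate 3 thus lay within the control range when the row mmu-mir-689-2 was counted in the total. That row stood at 25204 to 33903 FPKM in the control libraries and at 3683, 1813 and 42294 FPKM in the CM-RevDKO libraries. Shares without it were not computed. The median coefficient of variation of a subunit was 5.21% over the control libraries and 10.5% over the CM-RevDKO libraries, and 26 of 36 subunits varied more in the latter.

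**Figure D4:**
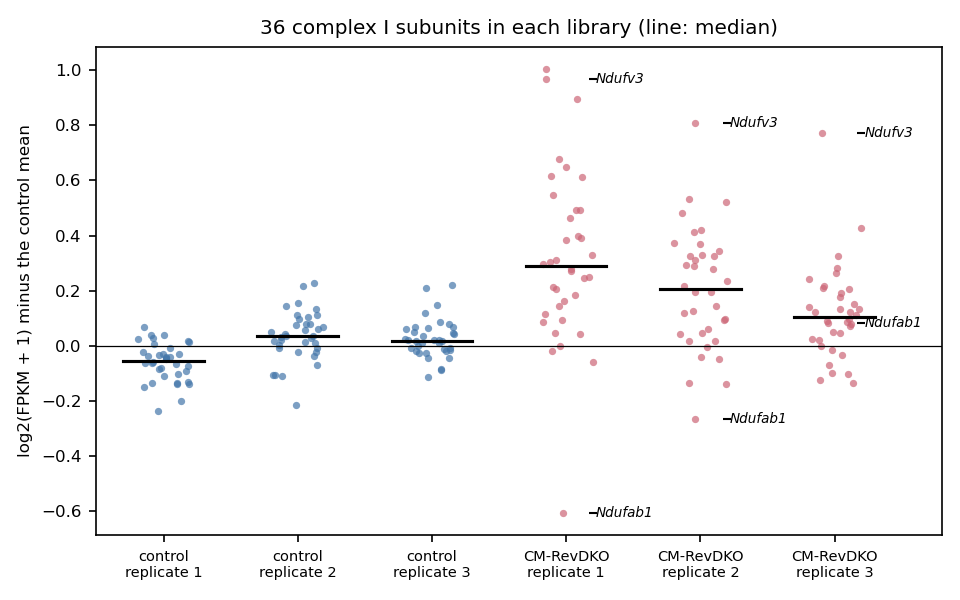
Each point is 1 of 36 subunits in 1 library, as log2(FPKM + 1) minus the mean of that gene over the control libraries (vertical axis); black lines are medians. The medians of CM-RevDKO replicates 1, 2 and 3 lie at 0.29, 0.21 and 0.10, and Ndufv3 lies far above the median in all 3, whereas Ndufab1 lies at -0.61 and -0.26 in replicates 1 and 2.

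Markers of other cell types differed too, and atrial markers did so in all 3 CM-RevDKO libraries. All 7 measured atrial markers had a positive log2 fold change and 1, Nppa, passed the test (1.26% of all genes were called higher). At an unadjusted p under 0.05 (limma), 6 of the 7 were higher, against 9.41% of all genes. For 6 the CM-RevDKO values all lay above the control values (12.6% of all genes). The summed level of the atrial markers was 324 to 435 FPKM in the control libraries and 1730, 947 and 1032 FPKM in CM-RevDKO replicates 1, 2 and 3. Their median log2 differences from the control mean were 2.46, 0.73 and 0.98 in these 3 libraries. The 6 measured adipocyte markers, none past the test, summed to 697 to 822 FPKM and to 1103, 806 and 593 FPKM, mostly from Fabp4. Their median log2 difference from the control mean was 1.71, 1.35 and -0.06 in the same order of CM-RevDKO libraries, and Adipoq stood at 1.05 to 1.06 FPKM and at 6.96, 4.88 and 1.35 FPKM. The 4 measured brown adipocyte markers, none past the test, summed to 3672 to 3954 FPKM in the control libraries and to 6360, 5111 and 4668 FPKM in CM-RevDKO replicates 1, 2 and 3. Nearly all of that sum came from Cox7a1 and Cox8b, which encode cytochrome c oxidase subunits that heart muscle also expresses. The log2 fold changes of the brown adipocyte markers were split, with 2 positive and 2 negative, from -0.53 to 0.55. Their median log2 difference from the control mean was 0.47, 0.03 and -0.06 in CM-RevDKO replicates 1, 2 and 3. Of the 8 fibroblast, 8 endothelial and 8 macrophage markers none passed the test, and in CM-RevDKO replicate 1 their medians lay at 0.38, 0.26 and 0.58. In the same order of cell types they lay at -0.10, 0.06 and -0.14 in CM-RevDKO replicate 2 and at -0.21, -0.04 and -0.115 in replicate 3. The fibroblast median was also high in control replicate 1, at 0.30. The 5 measured red blood cell markers summed to 5010 to 9006 FPKM in the control libraries and 8703 to 11003 FPKM in the CM-RevDKO libraries, with a positive log2 fold change for all 5 and none past the test. The part of these markers in the values of Ndufv3 and the other subunits was not tested.

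The 4 assembly factors listed under Ndufaf symbols were expressed at a far lower level than the subunits, with a median control mean of 19.9 FPKM. None of the 4 passed the test (limma). At an unadjusted p under 0.05, 0 were higher and 0 lower, against 9.41% and 7.23% of all genes. All 4 log2 fold changes were positive, with overlapping groups for each gene. Their median log2 fold change was 0.18 (0.12 in CM-RevDKO replicate 3 alone). It was 0.12 without control replicate 2, 0.29 without control replicate 3 and 0.11 when scaled without the mitochondrially encoded genes. Ndufaf2, which holds the place of Ndufa12 during assembly of the N module, stood at 22.5, 20.8 and 28.8 FPKM in the control libraries and at 35.9, 30.5 and 25.8 FPKM in the CM-RevDKO libraries (0.34, SE 0.16, adjusted p = 0.340). Ndufaf1, part of the machinery that builds the membrane arm, stood at 19.7, 16.8 and 19.4 FPKM and at 21.1, 23.3 and 16.8 FPKM (0.12, SE 0.14, adjusted p = 0.726). Its difference is not larger than the spread between replicates. Ndufaf3 stood at 18.6, 19.5 and 25.1 FPKM and at 22.5, 22.003 and 28.1 FPKM (0.19, SE 0.15, adjusted p = 0.560), and Ndufaf4, its partner in building the Q module, at 5.72, 5.58 and 7.30 FPKM and at 6.85, 7.36 and 6.82 FPKM (0.16, SE 0.12, adjusted p = 0.547). Control replicate 3 was the highest of the controls for both genes and lay among the CM-RevDKO values.

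The table lists 4 further Ndufaf genes under older symbols, found through their Ensembl identifiers and so outside the 42. Ndufaf7 (2410091C18Rik), a methyltransferase, stood at 8.36, 7.19 and 8.90 FPKM in the control libraries and at 11.3, 10.6 and 9.54 FPKM in the CM-RevDKO libraries, without overlap (0.33, SE 0.11, adjusted p = 0.204). Ndufaf8 (1810043H04Rik) had a log2 fold change of 0.14, and Ndufaf5 (2310003L22Rik), which hydroxylates Ndufs7, and Ndufaf6 (2310030N02Rik) had -0.04 and -0.09 (adjusted p = 0.637, 0.962 and 0.773). None of the 4 passed the test (limma), and their median was 0.05. At an unadjusted p under 0.05, 1 was higher and 0 lower, against 9.41% and 7.23% of all genes.

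Among 12 assembly factors and related genes with other names, 1 rose and 0 fell, where 1.26% of all genes were called higher and 1.24% lower. At an unadjusted p under 0.05, 4 were higher and 0 lower (9.41% and 7.23% of all genes), and the median was 0.14 (0.098 in CM-RevDKO replicate 3 alone). The gene that rose was Lyrm2, which encodes a small LYR motif protein linked to assembly of the N module (chromosome 4, 32800259 to 32802268, mm10). It stood at 24.1, 20.1 and 22.3 FPKM in the control libraries and at 36.8, 37.1 and 31.8 FPKM in the CM-RevDKO libraries, a 1.59-fold difference (0.65, SE 0.11, adjusted p = 0.0284). The groups did not overlap. The call ended when any library but CM-RevDKO replicate 3 was left out (adjusted p up to 0.113), and when values were scaled without the mitochondrially encoded genes (adjusted p = 0.0662). With CM-RevDKO replicate 3 alone against the controls the log2 fold change was 0.50 (adjusted p = 0.366). Dmac1 (3110001D03Rik), a factor for the distal membrane arm, had means of 37.1 and 46.8 FPKM (adjusted p = 0.176). Nubpl, which delivers iron-sulfur clusters to the enzyme, had 2.77 and 3.93 FPKM (adjusted p = 0.235), and Chchd4, which imports and oxidises proteins in the intermembrane space, 17.2 and 20.8 FPKM (adjusted p = 0.256).

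**Figure D5:**
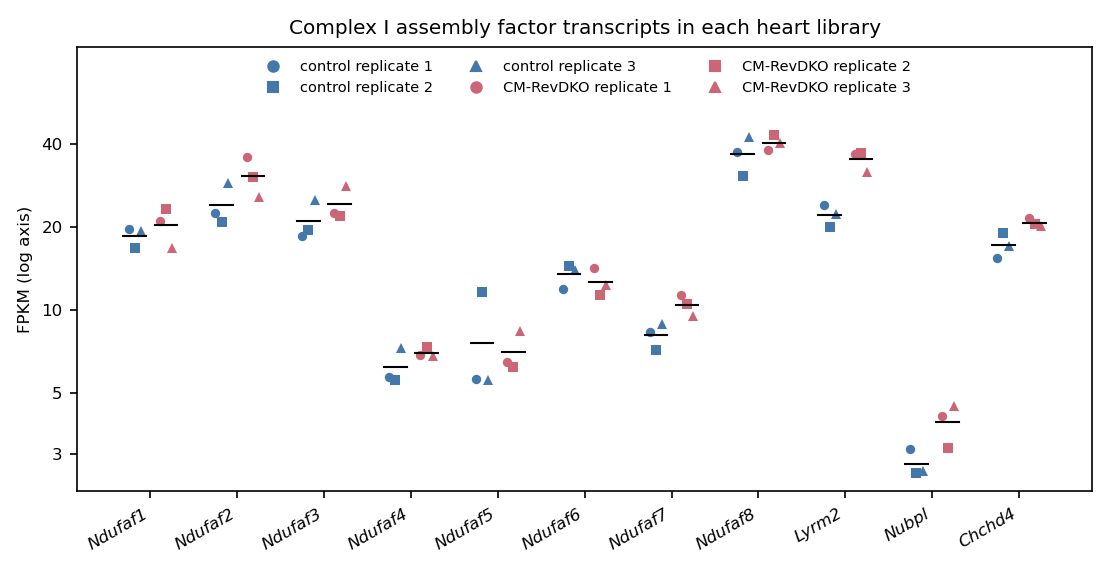
FPKM (log axis) of 8 Ndufaf genes, 4 of them listed under older symbols, and of Lyrm2, Nubpl and Chchd4 in each library; symbols mark the replicate number, blue is control, red is CM-RevDKO, and lines are group means. The groups overlap for Ndufaf1 to Ndufaf4, and Lyrm2 lies at 20.1 to 24.1 FPKM in the control libraries and 31.8 to 37.1 FPKM in the CM-RevDKO libraries.

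Ndufa4 was first described as a complex I subunit and is now placed in cytochrome c oxidase. It was more abundant than any of the 36 nuclear-encoded complex I subunits, at 1304, 1415 and 1375 FPKM in the control libraries and at 1930, 1714 and 1539 FPKM in the CM-RevDKO libraries (0.33, SE 0.10, adjusted p = 0.163). The groups did not overlap. Its paralog Ndufa4l2, known as a hypoxia-induced gene, stood at 10.3, 12.3 and 12.9 FPKM and at 15.2, 11.8 and 14.3 FPKM (0.20, SE 0.13, adjusted p = 0.485). It overlaps Shmt2 at its end, and without strand information reads of the shared stretch cannot be told apart. In all, 13 of the 42 members overlap another gene of the RefSeq annotation, among them Ndufs1, Ndufa1, Ndufa13 and Ndufb11.

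The 7 complex I genes of the mitochondrial genome encode the core of the membrane arm. None passed the test (limma). At an unadjusted p under 0.05, 2 were higher and 0 lower, against 9.41% and 7.23% of all genes. Their median log2 fold change was 0.06 (0.041 in CM-RevDKO replicate 3 alone). Its direction turned under 2 scalings, to -0.078 after quantile normalization and -0.0083 when scaled without the mitochondrially encoded genes. It was 0.013 without control replicate 2, 0.026 without CM-RevDKO replicate 2, 0.11 without control replicate 3 and 0.16 without CM-RevDKO replicate 3. mt-Nd4l stood at 7936, 7242 and 8541 FPKM in the control libraries and at 13180, 14519 and 8501 FPKM in the CM-RevDKO libraries (0.58, SE 0.20, adjusted p = 0.199). CM-RevDKO replicate 3 was at the control level, and the high values were those of the libraries that stood apart in mt-Atp8. mt-Nd3 and mt-Nd2 had the same pattern, with 7602, 8796 and 5755 FPKM against 5008 to 6088 FPKM, and with 13835, 15775 and 11873 FPKM against 10871 to 12298 FPKM. mt-Nd4, which overlaps mt-Nd4l, had means of 14892 and 14916 FPKM, and the other 3 genes had log2 fold changes between -0.03 and 0.06.

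Of 12 regulators of respiratory chain genes, 0 passed the test (limma), with a median log2 fold change of -0.12. At an unadjusted p under 0.05, 0 were higher and 2 lower, against 9.41% and 7.23% of all genes. The 2 were the PGC-1 coactivators, whose CM-RevDKO values all lay below the control values, as they did for 10.5% of all genes. Ppargc1a stood at 16.0, 12.9 and 14.5 FPKM in the control libraries and at 7.73, 11.2 and 10.5 FPKM in the CM-RevDKO libraries (-0.53, SE 0.15, adjusted p = 0.134), and Ppargc1b had means of 9.11 and 6.86 FPKM (-0.36, SE 0.10, adjusted p = 0.128). Among the factors that bind the elements searched above, Esrra had means of 63.1 and 64.4 FPKM and Nrf1 of 4.12 and 3.52 FPKM (adjusted p = 0.906 and 0.482). Esrrb, at 5.78 and 3.53 FPKM, had the next smallest p (adjusted p = 0.335).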

How the data were processed

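RNA was sequenced from 6 mouse heart libraries, 3 control and 3 CM-RevDKO, prepared, per the labels' protocols, with NEBNext Ultra II reagents. The authors deposited 1 table with a value per gene and library, read here as FPKM; the header names no unit, and TPM cannot be told apart. The submitters' processing notes list HISAT2, StringTie and mm10; the versions, the annotation and the use of strand are not stated in those notes or labels. The 6 columns were matched to samples by group and replicate number. Ratios of low values did not repeat between libraries (at most 3 of at least 2034 low genes in any of 15 pairs, to 4 decimals), so whole reads were not recovered, depth is unknown and no counting interval is given. No 2 libraries held identical values.

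Values were taken as log2(FPKM + 1), so fold changes of low genes are understated. A gene entered the fit when its 6 values averaged 0.5 FPKM or more, which 13256 did. The fit used limma 3.58.1 under R 4.3.3 (group as the only term, variance trend on mean level), with two-sided p-values adjusted by Benjamini-Hochberg over all of them and a threshold of 0.05. The procedure was tested on simulated data with 200 changed genes. It recovered 13.7% of log2 changes of 0.5, 62.3% of changes of 1 and 88.9% of changes of 2. Of its calls, 4.11% were false. The changed genes were drawn from all genes tested, so recovery among genes as abundant as the subunits was not measured. Changes below 0.5, as seen for most subunits, were not simulated and may be missed. Lists are described by counts and medians, with no test of their own. Values in every library are given for members past the test, core subunits, the ends of each module's range of fold changes, the 3 highest and 3 lowest levels, members differing at least 1.5-fold, Ndufaf genes and the 2 genes not counted as subunits; other members named in full, and Esrra and Nrf1, were chosen after their values were seen. Counts and medians cover all members, but 1 core subunit is not reported here by name. The members, lists and alternatives were chosen with earlier results of these data known. Coordinates are 1-based, from the RefSeq annotation of GRCm38.p6 (mm10), in which all 42 symbols matched. Alternatives covered the pseudocount, the filter, 3 scalings, the trend, the replicate block and left-out libraries.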

Additional observations from a re-analysis of the deposited data

How the results depend on the processing

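Ndufv3 stayed higher past the threshold under every alternative run but CM-RevDKO replicate 3 alone. The count of subunits called higher was 1 to 3 when single libraries were left out and 0 with CM-RevDKO replicate 3 alone. The median log2 fold change of the subunits was 0.15 to 0.26 with single libraries left out, 0.10 with CM-RevDKO replicate 3 alone and 0.067 after quantile normalization; that of the mitochondrially encoded complex I genes was 0.013 to 0.16 with single libraries left out and -0.078 after quantile normalization. Scaled without mitochondrially encoded genes, these medians were 0.11 and -0.0083. Over all genes, 70 to 188 were called higher and 47 to 134 lower with single libraries left out, and 10 and 11 with CM-RevDKO replicate 3 alone, where fewer samples enter. Quantile normalization and scaling without mitochondrially encoded genes moved the share of higher calls from 50.3% to 44.6% and 35.8%. For the scalings, the cause was not tested.

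The replicate number as a block left 69 genes higher and 46 lower, with Ndufv3 at an adjusted p of 0.0473 and Lyrm2 at 0.0864. Same-numbered libraries deviated from their group means with correlations of -0.04, -0.06 and 0.09, so the pairing rests on a shared number alone, and only control replicate 3 correlated best with its own number.

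The directions that turned were of members that did not pass the test. After quantile normalization the log2 fold change was -0.090 for Ndufv1, -0.069 for Ndufv2, -0.10 for Ndufs8, -0.10 for Ndufb10, -0.033 for Ndufs4 and -0.11 for Ndufb9. With equal medians it was -0.00053 for Ndufv1, and scaled without mitochondrially encoded genes it was -0.061 for Ndufv1, -0.037 for Ndufv2, -0.040 for Ndufs8 and -0.052 for Ndufb10. Leaving out single libraries gave -0.10 to 0.13 for Ndufb10, -0.075 to 0.12 for Ndufv2, -0.059 to 0.062 for Ndufv1, -0.0017 to 0.069 for Ndufs8 and -0.085 to 0.026 for Ndufs7. CM-RevDKO replicate 3 alone gave -0.10 for Ndufv1, -0.035 for Ndufs3, -0.016 for Ndufa5 and -0.14 for the assembly factor Ndufaf1. Sequencing depth is unknown, so its part in the precision cannot be given. The comparison with CM-RevDKO replicate 3 alone was chosen with the library values known and assumes that this library varies like the controls.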
